A study of Drosophila melanogaster with 35 samples.

Results

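The comparison described here follows the wing of control flies from the larval disc to the pupa, on 4 arrays of control wings of wandering larvae in the last instar (L3) and 4 arrays of control wings at 24h after pupa formation, chosen by their titles. These 8 arrays are part of a set of 35 that also holds control wings at 36h and wings overexpressing E2F1 with DP (E2F1DP) or Cabut (Cbt) at the same stages. The control animals carried the apterous-gal4 driver, UAS-GFP and tubulin-Gal80temp.sens. and no further transgene, and every other group carried these 3 elements too. The E2F1DP animals carried UAS-dE2F1 and UASdDP in addition, and the Cbt animals carried UAS-Cabut. Animals were grown at 18 °C and moved to 28 °C, where the Gal80 repressor no longer blocks Gal4. By their genotype the control wings could therefore express Gal4 and GFP, which was not checked here, and they went through a temperature shift like the other groups. The time spent at 28 °C before each stage is not given here. The apterous driver works in dorsal wing cells, whereas RNA came from whole dissected wings, 10 per sample. Total RNA was hybridised to 1-colour arrays, and the labels call the 4 samples of a group independent replicates. Each value is a log2 intensity that summarises the probes of a transcript.

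The wing disc of the larva is a folded epithelium whose cells are growing and dividing. After pupa formation, under the steroid hormone ecdysone, the disc everts, its dorsal and ventral surfaces meet and are joined through the basement membrane and integrins, and the cells leave the cell cycle. Later in the pupa the same cells grow hairs and secrete the cuticle of the adult wing.

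Of 15473 transcripts, 2712 were higher and 2942 lower at 24h than at L3 in the control wing at a limma adjusted p under 0.05, which is 17.5% and 19.0% of those tested and 36.5% together. Over all transcripts the changes were spread around 0, with a median of 0.02 and quartiles of -0.40 and 0.42 on the log2 scale. The values had been processed by RMA with settings that are not given, so a shift shared by all transcripts could not be judged. Among the transcripts that passed, the median change was 1.12 for rises and -1.07 for falls, beside a median standard error (SE) of 0.24. At least a 2-fold difference was reached by 1529 rises and 1579 falls. At least a 16-fold difference was reached by 155 rises and 107 falls, which is 5.72% and 3.64% of the calls in each direction. RNA of whole wings does not tell fewer cells of a type from less RNA per cell.

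**Figure D1:**
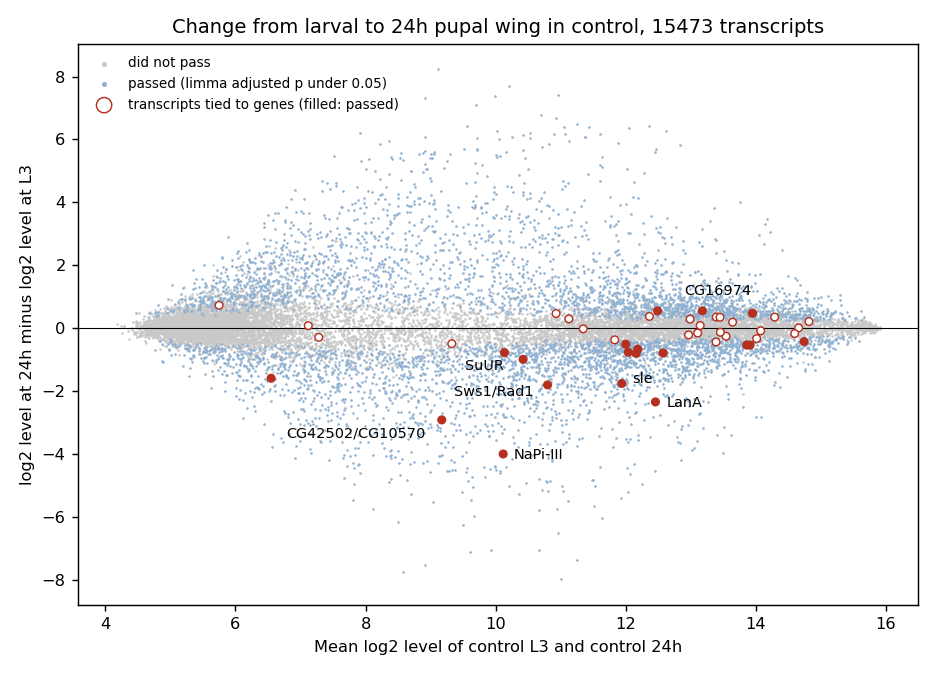
Change from L3 to 24h in control wings (vertical axis, log2) against the mean log2 level of both stages (horizontal axis), with 1 point per transcript. Grey points did not pass, blue points passed at a limma adjusted p under 0.05, and red circles are the 44 transcripts that could be tied to genes, filled where they passed. The named falls reach -3.99 for NaPi-III, while the named rises that passed reach 0.55. CG31178, which did not pass, stands at 0.73.

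Single arrays were also compared without a model. The 4 values at 24h lay all above or all below the 4 values at L3 for 5010 transcripts, 32.4% of those tested, of which 2438 were higher and 2572 lower at 24h. Of these, 2188 and 2386 were also called by limma.

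Some of the change consisted of transcripts that were dim at one stage. A log2 level of 6.20, under which the dimmest 25% of transcripts lie by their mean over the 35 arrays, was taken as the edge of the dim range, since no measure of background was at hand. The L3 mean lay under that edge for 555 of the 2712 rises (20.5%), and the 24h mean lay under it for 389 of the 2942 falls (13.2%). Transcripts that went from the dim range at L3 to above the median level of 9.68 at 24h numbered 44, and 26 went the opposite way. Whether a level in the dim range exceeds background is unknown, and the size of these changes is therefore inexact. In 4 bins of equal size by mean level, 10.9% of the dimmest transcripts passed, then 43.7%, 51.4% and, of the brightest, 40.2%. The bin below the brightest held more falls than rises, 1136 against 851, and the brightest held 742 falls and 813 rises.

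**Figure D2:**
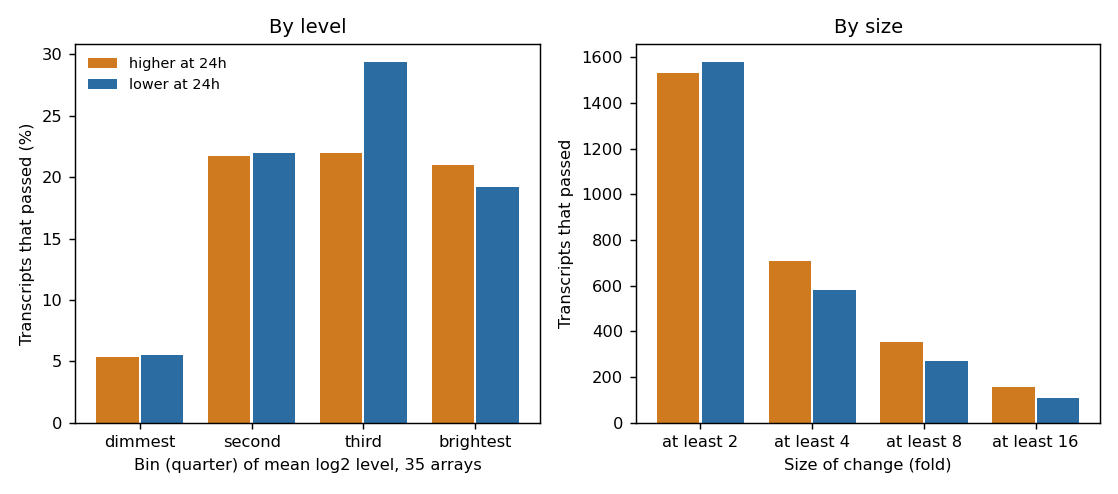
Left, the percent of transcripts that rose (orange) or fell (blue) from L3 to 24h in control wings within each of 4 bins of mean log2 level over the 35 arrays. Right, the number of calls that reached each size of change, from 1529 rises and 1579 falls at 2-fold or more to 155 and 107 at 16-fold or more.

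The 8 arrays did not all sit equally close to their groups. The root mean square distance of an array from its group mean ran from 0.281 to 0.393 log2 units at L3 and from 0.395 to 0.661 at 24h, with array 3 the farthest at 24h. Across transcripts, the standard deviation (SD) was larger at 24h than at L3 for 67.5%, with medians of 0.359 and 0.257. Array 3 at 24h had 796 transcripts at least 2-fold above and 916 at least 2-fold below each of the other 3 arrays of its group, and a median level of 9.28 beside 9.69 to 10.02. Array 4 at L3 had 300 above and 185 below, the most in its group, and its deviations from the group mean correlated with those of array 3 at 24h, with r = 0.558 over transcripts, which are not independent replicates. Array 1 at L3 had 115 above, and 78.3% of these were called higher at 24h in the Cbt wings, where 17.0% of all transcripts were. Without both array 4 at L3 and array 3 at 24h, 2517 transcripts rose and 2568 fell. Without array 1 at L3, 2490 rose and 2704 fell, so neither count moved by as much as 1.5 times.

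**Figure D3:**
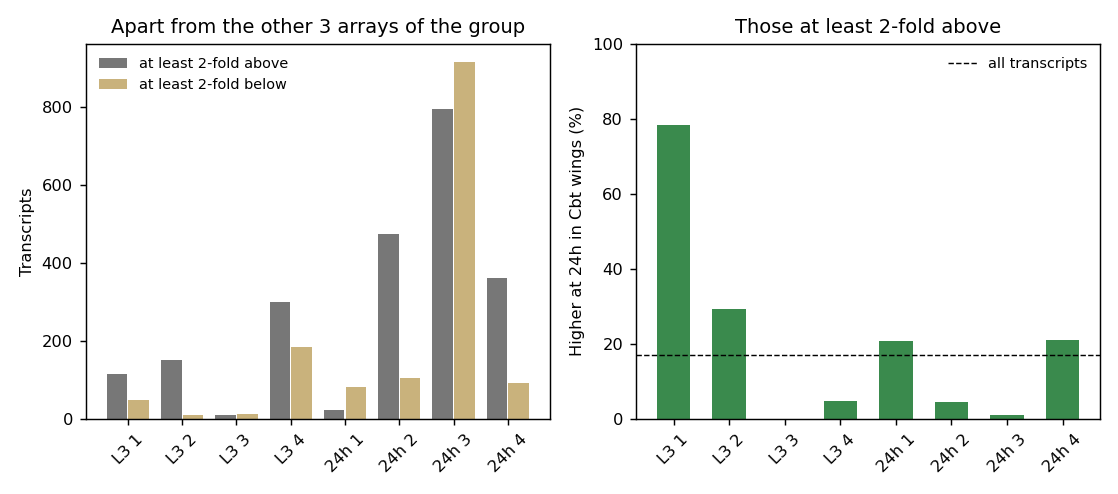
Left, the number of transcripts at least 2-fold above (grey) or below (tan) each of the other 3 arrays of the same control group. Right, the percent of those above that were called higher at 24h in Cbt wings, with 17.0% of all transcripts as the dashed line. Array 1 at L3 stands at 78.3%, and array 3 at 24h holds the largest numbers on the left with 796 and 916.

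Arrays also shared slides. Reading the shared number in the image names as the slide, the control L3 arrays lay on 4 slides and the control 24h arrays on 3, and 0 slides held both, so no value within a slide could be given. With the slide as a fixed term, tied together through the arrays of the other groups, 1968 transcripts rose and 2021 fell. With the slide as a random block, 2716 rose and 2956 fell. The part of the slide in the results was not tested beyond this.

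The features of the array carry transcript IDs, and 44 of them could be tied to genes. Of these, 17 belong to 1 gene each, 7 of them by a tag that marks the main reading frame only, so that a second frame may lie on the same transcript. These 7 are NaPi-III, SuUR, fend, HDAC3, rdx, CG16974 and CG31178. Fatp1 carries tags of more than 1 frame, tied to the same gene. The other 27 of the 44 carry several reading frames of up to 4 genes, and are named here by all their genes joined with a slash, since the array reads the transcript and not a frame. From L3 to 24h, 3 of the 44 rose and 16 fell, together 43.2%, beside 36.5% of all transcripts. Most of the 44 lay above the median level, in the bins where 51.4% and 40.2% of transcripts passed. Their median change was -0.23, beside 0.02 for all. The 25 others had changes from -0.49 to 0.73 and adjusted p from 0.0597 to 0.974. The upper limit is CG31178, dim at both stages, whose change was 0.21 without array 2 at 24h. The groups did not overlap for 16 of the 44 (36.4%), beside 32.4% of all transcripts, and 13 of these passed. Of 22 gene lists with 606 entries, on subjects from DNA replication to cuticle, 7 had a matched member. One of these lists is the set of 14 genes known from earlier results of these data, of which 9 fell and 1 rose. All matched members of the other lists are among these 14, so their counts are of the same genes. Of these members, 1 of 2 fell for histones and chromatin assembly, 1 of 1 for ribosome biogenesis and growth and 1 of 1 for basement membrane. For junctions and polarity 0 of 1 fell, and for proteolysis and ubiquitin 2 of 2. For lipid and solute transport 1 of 3 fell and 1 more rose, CG16974, for which no role is given below. Over all transcripts, 19.0% fell and 17.5% rose. None of 111 marker entries for cell types was matched, so the wing label and the presence of muscle, blood cells, trachea or nerve were not checked against markers.

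Among genes of the extracellular matrix, the cell membrane and the cytoskeleton, 3 of 5 fell and none rose. Over all transcripts, 19.0% fell and 17.5% rose, and these small groups by role serve for order only. NaPi-III, named as a cotransporter of sodium and phosphate, read 12.27, 12.11, 12.02 and 12.04 at L3 and 8.25, 8.79, 6.42 and 9.02 at 24h. Every 24h array lay far under every L3 array, and array 3 was lowest. The mean went from 12.11 ± 0.11 to 8.12 ± 1.18 (SD, n = 4 each), a change of -3.99 (SE 0.40, limma adjusted p = 1.59e-09), a 15.9-fold fall. LanA, the alpha chain of laminin, a building block of the basement membrane, read 14.08, 13.32, 13.58 and 13.52 at L3 and 10.78, 11.19, 11.31 and 11.87 at 24h. The groups lay well apart, and the change was -2.34 (SE 0.21, limma adjusted p = 1.53e-10), a 5.06-fold fall. fend, which acts in the guidance of motor axons, read 10.73, 10.46, 10.70 and 10.20 at L3 and 9.48, 10.06, 9.37 and 10.08 at 24h. Its groups came close without overlapping, and it fell by 0.77 (SE 0.24, limma adjusted p = 0.011), a call that ended with the slide as a fixed term (adjusted p = 0.0902). Fatp1, which takes part in fatty acid uptake, read 10.95, 11.03, 11.00 and 10.92 at L3 and 11.43, 10.87, 11.14 and 11.65 at 24h, and alpha-Spec, the alpha chain of spectrin in the membrane skeleton, ranged from 12.47 to 13.33 and from 12.82 to 13.55. Both overlapped between the stages, with changes of 0.30 (adjusted p = 0.18) and 0.29 (adjusted p = 0.29) that did not pass.

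Among genes that act on DNA and chromatin, 4 of 7 fell and none rose, beside 19.0% and 17.5% of all transcripts. The transcript that carries Sws1 and Rad1, of which Rad1 is part of the checkpoint clamp at damaged DNA, read 11.79, 11.63, 11.78 and 11.58 at L3 and 10.09, 9.97, 9.55 and 10.00 at 24h. All arrays of a stage lay close together, and the change of -1.80 (SE 0.14, limma adjusted p = 5.75e-12) had the lowest p of the 44. SuUR, which suppresses replication in late-replicating chromatin, read 11.21, 10.67, 10.73 and 11.04 at L3 and 10.41, 9.95, 8.67 and 10.68 at 24h. Its groups touched, because array 4 at 24h was as high as array 2 at L3, and it fell by 0.99 (SE 0.25, limma adjusted p = 0.00244). Without array 3 at 24h, which read 8.67, the change was -0.56 (adjusted p = 0.016), without array 4 at L3 as well it was -0.52 (0.0429), and with array weights it was -0.58 (0.0106). The call ended in a fit of the 8 arrays alone (adjusted p = 0.116), of the 12 control arrays alone (0.052) and with the slide as a fixed term (0.0986). The moi/Tgs1 transcript carries moi, a telomere capping protein, and Tgs1, a cap methylase of small nuclear RNAs, and read 13.02, 12.98, 12.92 and 12.95 at L3 and 12.16, 11.94, 12.19 and 12.43 at 24h. It fell by 0.78 (SE 0.11, limma adjusted p = 1.33e-06) with no overlap. HDAC3, a histone deacetylase, read 14.46, 13.98, 13.94 and 14.33 at L3 and 13.69, 13.50, 13.71 and 13.68 at 24h, and fell by 0.53 (SE 0.11, limma adjusted p = 0.000256).

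The other 3 of this kind did not pass. kis, a chromatin remodeller of the trithorax group, read 13.85, 13.45, 13.60 and 13.52 at L3 and 13.45, 13.11, 12.93 and 13.20 at 24h, with a change of -0.44 (adjusted p = 0.0653). Its stages met at 13.45, where array 2 at L3 and array 1 at 24h lay within rounding of each other. His4r, a histone H4 made outside replication, ranged from 9.92 to 11.20 at L3 and from 10.82 to 11.56 at 24h, with a change of 0.47 (adjusted p = 0.255) and overlapping groups. The transcript of Tfb5, a subunit of the general factor TFIIH, together with CG31917, changed by 0.36 with the lowest adjusted p among those that did not pass, 0.0597. It passed in 7 of 24 alternatives, among them array weights (limma adjusted p = 0.0251), and had a change of 0.11 with the slide as a fixed term (0.765).

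Among genes of the nucleolus, of RNA and of tRNA, 2 of 6 fell and none rose, beside 19.0% and 17.5% of all transcripts. sle, a nucleolar protein, read 13.08, 12.65, 12.77 and 12.75 at L3 and 11.25, 10.94, 11.06 and 11.00 at 24h. Both groups were tight and far apart, and sle fell by 1.75 (SE 0.20, limma adjusted p = 1.71e-08), a 3.37-fold fall. The transcript of Polr3K, a subunit of RNA polymerase III, and Tcs1, by its name an enzyme of threonylcarbamoyl tRNA modification, read 12.43, 12.52, 12.31 and 12.80 at L3 and 11.78, 11.67, 11.65 and 12.31 at 24h. The highest 24h array came level with the lowest L3 array, without overlap as measured, and the change was -0.66 (SE 0.16, limma adjusted p = 0.0017). The transcripts with Mettl5, an rRNA methylase, Tcs6 with PIG-P, Rpp14a, a subunit of RNase P, and Pbp49, which binds promoters of small nuclear RNA genes, changed by 0.38, 0.22, -0.12 and -0.17. None of these 4 passed, with adjusted p from 0.119 to 0.546, although the Mettl5 transcript was higher on each 24h array, 12.39 to 12.77, than on any L3 array, 12.11 to 12.30.

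Among genes of protein turnover, signalling and trafficking, 4 of 9 fell and none rose, beside 19.0% and 17.5% of all transcripts. The 4 falls were all by less than 2-fold. Wdr24, a subunit of the GATOR2 complex upstream of the growth kinase TORC1, read 12.82, 12.36, 12.35 and 12.69 at L3 and 11.65, 11.54, 11.49 and 12.36 at 24h. Array 4 at 24h reached the lower L3 arrays, the other 3 lay below them, and Wdr24 fell by 0.79 (SE 0.18, limma adjusted p = 0.000602). mio, another GATOR2 subunit, read 9.59, 9.47, 9.54 and 9.67 at L3 and 9.21, 8.59, 8.96 and 9.55 at 24h, a change of -0.49 that did not pass (adjusted p = 0.0943). Leaving out 1 array at a time moved it between -0.33 without array 2 at 24h (adjusted p = 0.313) and -0.65 without array 4 at 24h (limma adjusted p = 0.0316), where alone it passed.

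Uba1, the E1 enzyme that activates ubiquitin, read 14.32, 13.81, 14.02 and 14.33 at L3 and 13.48, 13.40, 13.59 and 13.90 at 24h, with 1 array of each group in the range of the other. It fell by 0.53 (SE 0.16, limma adjusted p = 0.00928), and the call ended in the fit of the 8 arrays alone (0.0596), with the slide as a fixed term (0.0729) and without array 4 at L3 and array 3 at 24h (0.0625). rdx, the Cullin-3 adaptor that targets the Hedgehog effector Ci for degradation, read 14.99, 15.03, 15.06 and 14.74 at L3 and 14.60, 14.47, 14.26 and 14.79 at 24h. Its groups overlapped, and it fell by 0.42 (SE 0.14, limma adjusted p = 0.019). This call ended without array 3 at L3 (0.0557), without array 3 at 24h (0.0884), in the fit of the 8 arrays (0.0824) and with the slide as a fixed term, where the change was -0.26 (0.368). The transcript of CG42455 and vnc, an N-terminal acetyltransferase subunit, read 12.32, 12.26, 12.01 and 12.41 at L3 and 11.82, 11.45, 11.98 and 11.74 at 24h, and fell by 0.51 (SE 0.14, limma adjusted p = 0.00359). The transcripts of Dyrk3, a protein kinase, of lmgA, a subunit of the anaphase-promoting complex, with lmgB, of Muted, a subunit of the BLOC-1 trafficking complex, and of Gint3 changed by 0.35, 0.09, -0.08 and 0.20, none past the threshold.

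In mitochondria and metabolism 1 of 6 rose and none fell, beside 17.5% and 19.0% of all transcripts. The CG42496/Ppcdc transcript, where Ppcdc by its name decarboxylates phosphopantothenoylcysteine in the making of coenzyme A, read 13.34, 13.84, 13.83 and 13.82 at L3 and 14.14, 14.26, 14.28 and 14.06 at 24h. The groups did not overlap, and it rose by 0.48 (SE 0.17, limma adjusted p = 0.0256). Array 1 at L3 was the lowest by far, and without it the rise was 0.36 (adjusted p = 0.126). The call ended also without array 2 (0.0579) or array 3 (0.0622) at 24h, without array 4 at L3 and array 3 at 24h (0.066), in the fit of the 8 arrays (0.053) and with the slide as a fixed term (0.133). The transcripts with Dpm2, of dolichol-phosphate mannose synthesis, with PIG-M, of GPI anchor synthesis, with ND-MNLL, a subunit of respiratory complex I, with Tim10, a mitochondrial import chaperone, and the Mocs2A/Mocs2B transcript, for both subunits of molybdopterin synthase, changed by -0.37, -0.25, -0.29, 0.01 and -0.21. None of the 5 passed, with adjusted p from 0.0698 to 0.974.

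For 11 transcripts no role is given. The CG42502/CG10570 transcript read 9.70, 11.25, 10.50 and 11.06 at L3 and 7.66, 9.36, 5.97 and 7.87 at 24h, and fell by 2.91 (SE 0.56, limma adjusted p = 8.91e-05), with array 3 lowest at 24h. Without array 3 at 24h the change was -2.33, and without array 4 at L3 as well it was -2.18, past the threshold in both (adjusted p = 0.000903 and 0.00382). The CG42305/CG17325 transcript read 6.19, 8.50, 7.33 and 7.35 at L3 and from 4.90 to 6.42 at 24h, and fell by 1.59 (SE 0.31, limma adjusted p = 9.94e-05), to a mean of 5.75 in the dim range, so that its size is inexact. Its lowest L3 array, array 1, lay under the highest 24h array. The CG42488/CG5116 transcript read 12.46, 12.25, 12.37 and 12.59 at L3 and 11.65, 11.51, 11.73 and 11.74 at 24h, and fell by 0.76 (SE 0.13, limma adjusted p = 2.86e-05) with no overlap. CG16974 read 13.06, 12.87, 12.88 and 12.79 at L3 and 13.59, 13.38, 13.13 and 13.71 at 24h, and rose by 0.55 (SE 0.15, limma adjusted p = 0.00278), the only rise among the 17 transcripts of 1 gene. The CG45088/CG6191 transcript read 12.58, 12.03, 12.15 and 12.08 at L3 and 12.77, 12.62, 12.46 and 13.22 at 24h, and rose by 0.55 (SE 0.17, limma adjusted p = 0.00941) with array 1 at L3 inside the 24h range. This rise did not pass without array 4 at 24h (0.0619), in the fit of the 8 arrays (0.0826) or with the slide as a fixed term (0.178). The other 6 changed by -0.33 to 0.73.

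**Figure D4:**
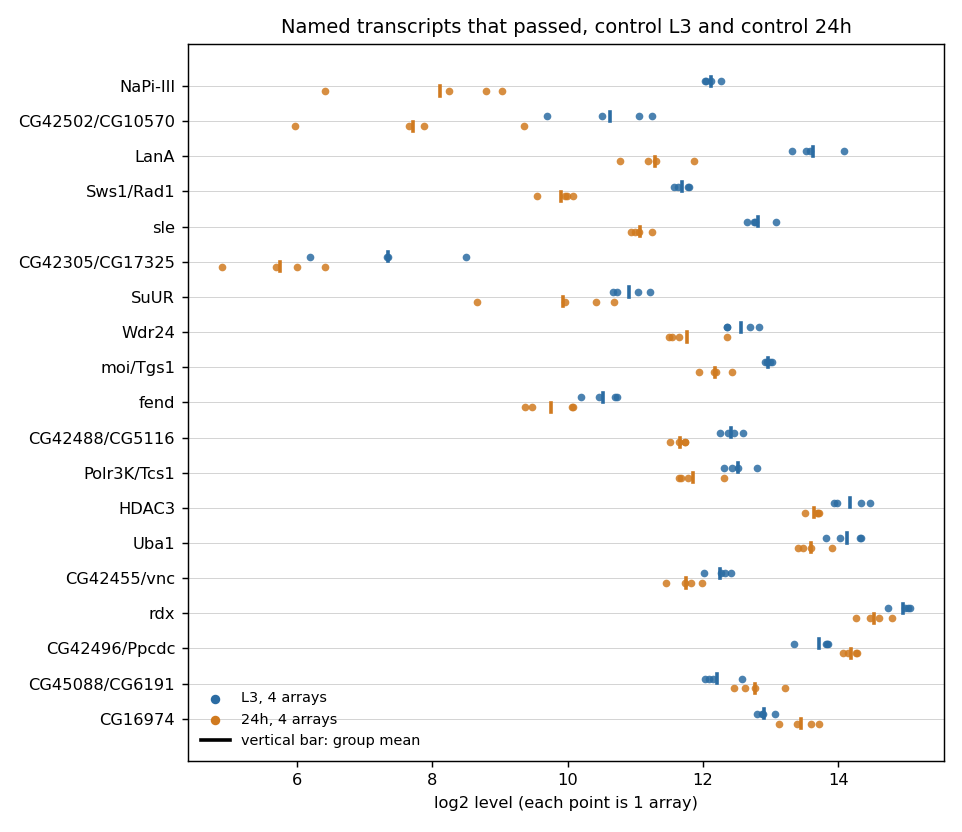
log2 level on each of the 4 control L3 arrays and the 4 control 24h arrays for the 19 named transcripts that passed, 1 transcript per line, 1 point per array and a vertical bar at each group mean. The stages lie apart for 13 of the 19, from NaPi-III with 12.02 to 12.27 at L3 and 6.42 to 9.02 at 24h to the CG42496/Ppcdc transcript with 13.34 to 13.84 and 14.06 to 14.28.

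The largest changes of all were in transcripts that could not be tied to a gene. FBtr0075468 read 4.99, 5.17, 4.92 and 4.93 at L3, all in the dim range, and 11.93, 13.90, 12.80 and 14.27 at 24h, a rise of 8.22 (SE 0.64, limma adjusted p = 1.05e-11). FBtr0088656 read 7.95, 5.99, 5.78 and 5.70 at L3 and 13.97, 14.13, 13.99 and 14.08 at 24h, a rise of 7.69 (SE 0.58, limma adjusted p = 4.87e-12), and of 8.22 without array 1 at L3. Only array 1 of the L3 arrays was above the dim range for this transcript. FBtr0087917 fell by 7.97 (SE 0.43, limma adjusted p = 3.64e-15), from 15.31, 14.66, 14.73 and 15.28 at L3 to 6.69, 7.65, 5.35 and 8.40 at 24h. FBtr0083461 fell by 7.74 (SE 0.44, limma adjusted p = 9.33e-15), from 11.23, 13.66, 11.95 and 12.92 at L3 to 5.25, 4.52, 4.36 and 4.65 at 24h, all in the dim range. In each of the 4 the stages were separated by more than any spread within a stage.

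The same change of stage was measured in Cbt and E2F1DP wings. Their arrays enter no mean of the control comparison, but they share slides with it and contribute to its estimate of the spread, since all 35 arrays were fitted together. In Cbt wings 17.0% of transcripts rose and 14.3% fell, and in E2F1DP wings, with 3 arrays at L3, 8.05% rose and 9.19% fell. Array 3 of E2F1DP at 24h lay farthest from its group of all 35 arrays, at a root mean square distance of 0.684 and with a median level of 9.25. Of the 2712 control rises, 2599 (95.8%) were also above 0 in Cbt, where 48.0% of all transcripts were, and 1916 (70.6%) were called higher there, while 3 were called lower. Of the 2942 control falls, 2770 (94.2%) were below 0 in Cbt, where 52.0% of all were, and 1757 (59.7%) were called lower, while 17 were called higher. In E2F1DP, 82.7% of the control rises and 84.0% of the control falls had the same sign, beside 45.5% and 54.5% of all transcripts with that sign, and 36.1% and 34.8% were called the same way, while 46 and 28 were called the opposite way. Calls made the same way in E2F1DP numbered 2001 in all, and 3091 with array weights. In a fit of the 8 control arrays alone, which takes nothing from the other lines, 2137 transcripts rose and 2241 fell, and 96.6% and 96.7% of these had the same sign in Cbt and 84.6% and 85.2% in E2F1DP. The difference between the change in Cbt and in control passed for 401 transcripts, 2.59% of those tested, with 353 above 0 and 48 below. This count was 65 with the slide as a fixed term, 228 at a threshold of 0.01 and 669 with array weights. The difference between E2F1DP and control passed for 1683 transcripts, 10.9%, with 899 above 0 and 784 below. It was 1035 at a threshold of 0.01, 3145 with array weights and 1579 without array 3 at 24h of both control and E2F1DP. The change lay below that of control for 89.8% of the control rises in E2F1DP and 69.1% in Cbt. For the control falls, it lay above that of control for 87.6% in E2F1DP and 82.2% in Cbt. Among the E2F1DP differences that passed, 682 of 713 were below 0 for control rises and 775 of 786 above 0 for control falls. Both differences use the control arrays, on which the control calls were made, and this by itself favours such a lean.

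Among the 19 named calls, 18 had the same sign in Cbt and 11 were called the same way there, and 14 had the same sign in E2F1DP and 6 were called the same way. LanA and the moi/Tgs1 transcript fell in all 3 lines, LanA with changes of -2.34 in control, -1.73 in Cbt and -2.51 in E2F1DP, and moi/Tgs1 with -0.78, -0.62 and -0.46. sle was the named transcript whose change differed between Cbt and control, at -0.55 in Cbt and -1.75 in control, a difference of 1.20 (limma adjusted p = 0.011). In E2F1DP, the change of sle was -0.21, a difference from control of 1.54 (SE 0.29, limma adjusted p = 0.000359). NaPi-III fell by 3.99 in control and changed by -0.51 in E2F1DP, a difference of 3.49 (SE 0.59, limma adjusted p = 8.54e-05). The Sws1/Rad1 transcript differed by 1.41 (SE 0.20, limma adjusted p = 8.73e-06), SuUR by 1.46 (0.0084), Wdr24 by 0.88 (0.025), Uba1 by 0.78 (0.0276) and HDAC3 by 0.77 (0.00137). Without array 3 at 24h, the control changes of NaPi-III and SuUR were -3.43 and -0.56. The differences of the named transcripts are not given here without that array or with the slide as a fixed term. The differences of 8 of the 44 named transcripts passed for E2F1DP and of 1 for Cbt, beside 10.9% and 2.59% of all transcripts. All of these but the CG42375/CG9288 transcript were control falls. Of the 2942 control falls, the difference passed for 786 in E2F1DP and for 272 in Cbt, which is the closer background. The CG42375/CG9288 transcript, which did not pass in control, with a change of -0.33, changed by -0.97 in E2F1DP, a difference of -0.64 (limma adjusted p = 0.0438).

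**Figure D5:**
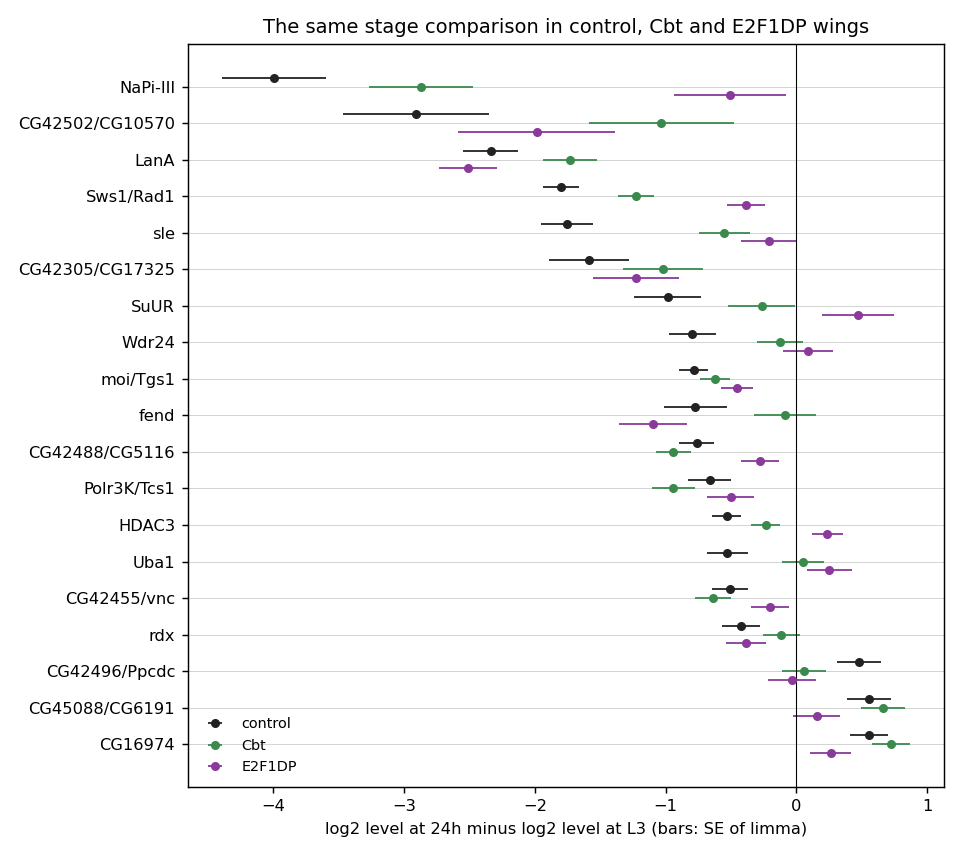
Change from L3 to 24h (log2) of the 19 named transcripts that passed in control wings, for control (black), Cbt (green) and E2F1DP (purple) wings, with bars of 1 SE of limma. NaPi-III changed by -3.99, -2.87 and -0.51, whereas LanA changed by -2.34, -1.73 and -2.51.

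Levels at 36h show where the named transcripts went next. From 24h to 36h, 23.2% of all transcripts changed in control wings, and 8 of the 44 named transcripts rose and 10 fell, a comparison that shares the 24h arrays with the one above. NaPi-III, at 12.11 and 8.12 at L3 and 24h, was at 7.92 ± 0.80 (SD, n = 4) at 36h, and LanA, at 13.62 and 11.29, was at 11.10 ± 0.26. Both differed little between 24h and 36h, by -0.20 (adjusted p = 0.766) and -0.18 (adjusted p = 0.571). The Sws1/Rad1 transcript went on down, from 11.70 to 9.90 to 9.29, as did the CG42488/CG5116 transcript, from 12.42 to 11.66 to 10.91, and the Polr3K/Tcs1 transcript, from 12.52 to 11.85 to 11.17. Their later changes passed, with limma adjusted p of 0.00124, 9.3e-05 and 0.00273. SuUR, at 10.91 and 9.93, was at 10.83 at 36h, with a later rise of 0.90 (limma adjusted p = 0.00929). The level of rdx, at 14.95 and 14.53, was 15.03 at 36h, a later rise of 0.50 (limma adjusted p = 0.00955). The 24h means of NaPi-III and SuUR include array 3, their lowest, at 6.42 and 8.67. Their later changes without that array are not given here. Fatp1, whose change to 24h did not pass, was at 10.97, 11.27 and 13.78 in turn, a later rise of 2.50 (limma adjusted p = 3.93e-12). The CG42496/Ppcdc transcript stood at 13.71, 14.19 and 13.71, with a later fall of 0.48 (limma adjusted p = 0.0385).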

How the data were processed

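The authors deposited 1 table per array with a linear intensity for each transcript, which the submitters' processing notes credit to RMA, and a probe count (4 or 5 probes for nearly all transcripts). The deposited series table holds the log2 of the same values, with differences of at most 5.0e-09. RMA settings, the arrays run together, annotation release and build are not given in the sources used here. The log2 values of all 35 arrays entered a single model of 9 group means in limma 3.58.1 in R 4.3.3 (26 residual and 2.86 prior degrees of freedom), with Benjamini-Hochberg adjustment over 15473 transcripts and a threshold of 0.05. The code was tested on simulated data. Figures used Python 3.11.15, pandas 2.3.3, numpy 2.4.6 and matplotlib 3.10.9.

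The files hold transcript IDs only. Of these, 44 stood in the synonym column of a RefSeq gene table (Release 6 plus ISO1 MT), tied to 74 genes, and 15429 were not. The rule named transcripts of exactly 1 gene, and of the others the pair with the largest rise and the pair with the largest fall, without overlap and above the dim range in the higher stage. The 27 transcripts of several genes were added after the data were seen, whatever their values, and role groups serve for order only. The members and lists were chosen with earlier results of these data known.

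No pair of the 8 arrays was a copy, since the highest correlation was 0.993 and the lowest root mean square difference 0.413. Array medians over the 35 arrays lay between 9.25 and 10.02, and precision is limited by how many arrays there are. Same-numbered L3 and 24h arrays had deviations that correlated at 0.09, 0.20, -0.26 and -0.23, so the numbers were not taken to pair samples. Alternatives changed the arrays in the fit, the slide, replicate number and array weights, the scaling, the treatment of dim values, the threshold, and each array left out in turn.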

Additional observations from a re-analysis of the deposited data

Results flagged for a closer look

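Among 102 sets of 4 values, from the 44 named transcripts, the 4 unnamed ones and 3 summaries per array at each stage, 5 (4.90%) held 1 array that lay far from the other 3, where chance gives about 1 in 20. These were the CG42496/Ppcdc transcript at 13.34 on L3 array 1, HDAC3 at 13.50 on 24h array 2, the lmgA/lmgB transcript at 12.54 on 24h array 3, CG31178 at 7.68 on 24h array 2 and FBtr0088656 at 7.95 on L3 array 1. CG31178, at 5.50 to 5.64 on the other 24h arrays, was in the dim range on all but that array.

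For 8 named transcripts, the change from L3 to 24h differed between a transgene line and control by limma, 8 of 44 for E2F1DP and 1 of 44 for Cbt, beside 10.9% and 2.59% of all transcripts. All but the CG42375/CG9288 transcript were control falls, and of the 2942 control falls 786 differed in E2F1DP and 272 in Cbt. The change of sle was 1.20 higher in Cbt (adjusted p = 0.011). In E2F1DP the changes were higher by 3.49 for NaPi-III (8.54e-05), 1.54 for sle (0.000359), 1.46 for SuUR (0.0084), 1.41 for the Sws1/Rad1 transcript (8.73e-06), 0.88 for Wdr24 (0.025), 0.78 for Uba1 (0.0276) and 0.77 for HDAC3 (0.00137). That of the CG42375/CG9288 transcript differed by -0.64 (0.0438). All share the control arrays, and E2F1DP at L3 had 3 arrays. None of these differences is given here without control array 3 at 24h, the lowest 24h array for NaPi-III and SuUR.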

How the results depend on the processing

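Over 24 alternatives, no named call turned its direction. The 3 that averaged 24h arrays of 1 slide or left out arrays that stood apart were chosen after seeing the data, as were the shares of same sign from the fit of 8 arrays. Of the 19 named calls, 6 held in all alternatives run for them (23 for the CG42305/CG17325 transcript, which a filter on dim transcripts removes), and 13 held in all but a minimum of 2-fold and a threshold of 0.01. Of the 25 others, 8 passed in at least 1. The 2712 rises and 2942 falls became 1529 and 1579 at a minimum of 2-fold, where the calls made the same way in Cbt numbered 1977 and in E2F1DP 1217, in place of 3673 and 2001. With array weights, 3091 were called the same way in E2F1DP. The 401 transcripts whose change differed in Cbt became 65 with the slide as a fixed term, 669 with array weights and 228 at a threshold of 0.01. The 1683 that differed in E2F1DP became 3145 with array weights and 1035 at 0.01. With the slide as a fixed term the median SE was 0.308 in place of 0.235. Leaving out 1 control array at a time gave 2428 to 2733 rises, 2636 to 3179 falls, 328 to 521 differences for Cbt and 1478 to 1719 for E2F1DP. With the replicate number as a block there were 2762 rises and 3015 falls, and the numbers do not pair the samples. The mean over transcripts of a gene was not run, because no gene had more than 1 matched transcript. The cause of these shifts was not tested. Signal over background limits dim transcripts, of which 3302 were dim at both stages.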
